A study of Mus musculus with 42 samples.

Results

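The mouse UDP-glucuronosyltransferases (UGTs) and cytosolic sulfotransferases (SULTs) were followed in kidneys with an obstructed ureter, in the proximal tubule and in whole-kidney RNA of both sexes. The members were all gene symbols of the count table that begin with Ugt1, Ugt2, Ugt3, Ugt8 or Sult and go on as the names of individual enzymes do, which gave 40 of 40701 symbols, 21 UGT and 19 SULT genes. RNA was sequenced from the renal cortex of 12-week-old female and male mice, in kidneys at day 5 of obstruction, kidneys at day 10 of obstruction and contralateral kidneys, whose day is not given. From each kidney state there were libraries of RNA bound to anti-GFP beads, called PT (proximal tubule), and libraries called Total (total kidney). Bead binding pulls down the ribosomes of cells that carry a GFP-tagged ribosomal protein, together with the RNA on them. The labels do not name the mouse strain or the promoter that drives the tag, and do not say whether Total is the part that the beads left behind. This made 12 groups, with 3 libraries in each female group and 4 in each male group. The labels do not say that replicates came from separate animals, so the p-values measure the spread between these libraries.

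UGTs sit in the membrane of the endoplasmic reticulum and join glucuronic acid, taken from UDP-glucuronate, to drugs, steroids, bile acids and bilirubin. SULTs are cytosolic and join sulfate, taken from the activated donor PAPS, to phenols, catecholamines, thyroid hormones and steroids. Both kinds of conjugate dissolve more readily in water than their parent compounds, and the proximal tubule both makes them and secretes them into urine. In mice the Ugt1a genes each have a first exon of their own and share the exons after it, the Ugt2b genes form a cluster of closely related copies, and Ugt8a encodes the enzyme that makes galactosylceramide, a membrane lipid, rather than a drug conjugate.

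Libraries held 9.31 to 43.6 M counts with a median of 18.5 M. The summed level of 7 proximal tubule markers (Slc34a1, Lrp2, Cubn, Slc5a2, Slc22a6, Slc27a2 and Slc7a13) was 6523 to 9194 CPM (counts per M counts, scaled with TMM factors) in PT and 3912 to 6232 CPM in Total of contralateral kidneys, and 5 markers of the loop of Henle and distal tubule summed to 107 to 209 CPM in PT against 1786 to 5404 CPM in Total. The PT label thus matched its markers. In obstructed kidneys all 7 proximal tubule markers fell in PT at both days, to sums of 1283 to 2540 CPM at day 5 and 894 to 4283 CPM at day 10. The macrophage list had 4 of 5 members higher in PT at both days, with sums of 20.6 to 38.5 CPM at day 5 and 25.7 to 66 CPM at day 10, against 4.29 to 10.7 CPM in contralateral kidneys. The fibroblast list had 5 of 5 members higher, with sums of 17.4 to 34.8 CPM at day 5 and 27 to 51 CPM at day 10, against 1.85 to 5.39 CPM in contralateral kidneys. Fewer cells of a type and less RNA per cell cannot be told apart in such bulk libraries.

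All 40 genes were looked up, and 6 SULT genes (Sult2a2, Sult2a4, Sult2a5, Sult2a6, Sult2a7 and Sult3a1) had no count in any library. By total counts, without TMM factors, that allows a level of up to 0.0687 CPM in the largest and 0.322 CPM in the smallest library. After removal of genes with low counts, 23 members could be tested in PT and 24 in Total. A gene was called when the adjusted p (Benjamini-Hochberg) of edgeR's quasi-likelihood test was under 0.05 and the change at least 2-fold. The share of all genes called in at least 1 comparison was not taken, so the next count served only to choose genes. 23 members were called in at least 1 comparison. The 15 of them that reached a mean of 5 CPM in some group are described with their values, 8 UGT and 7 SULT genes, and the others by range and count. Log2 fold changes are given ± SE, and unless a sex is named each day is compared with contralateral kidneys over both sexes at equal weight. Both days were compared with the same contralateral libraries.

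**Figure D1:**
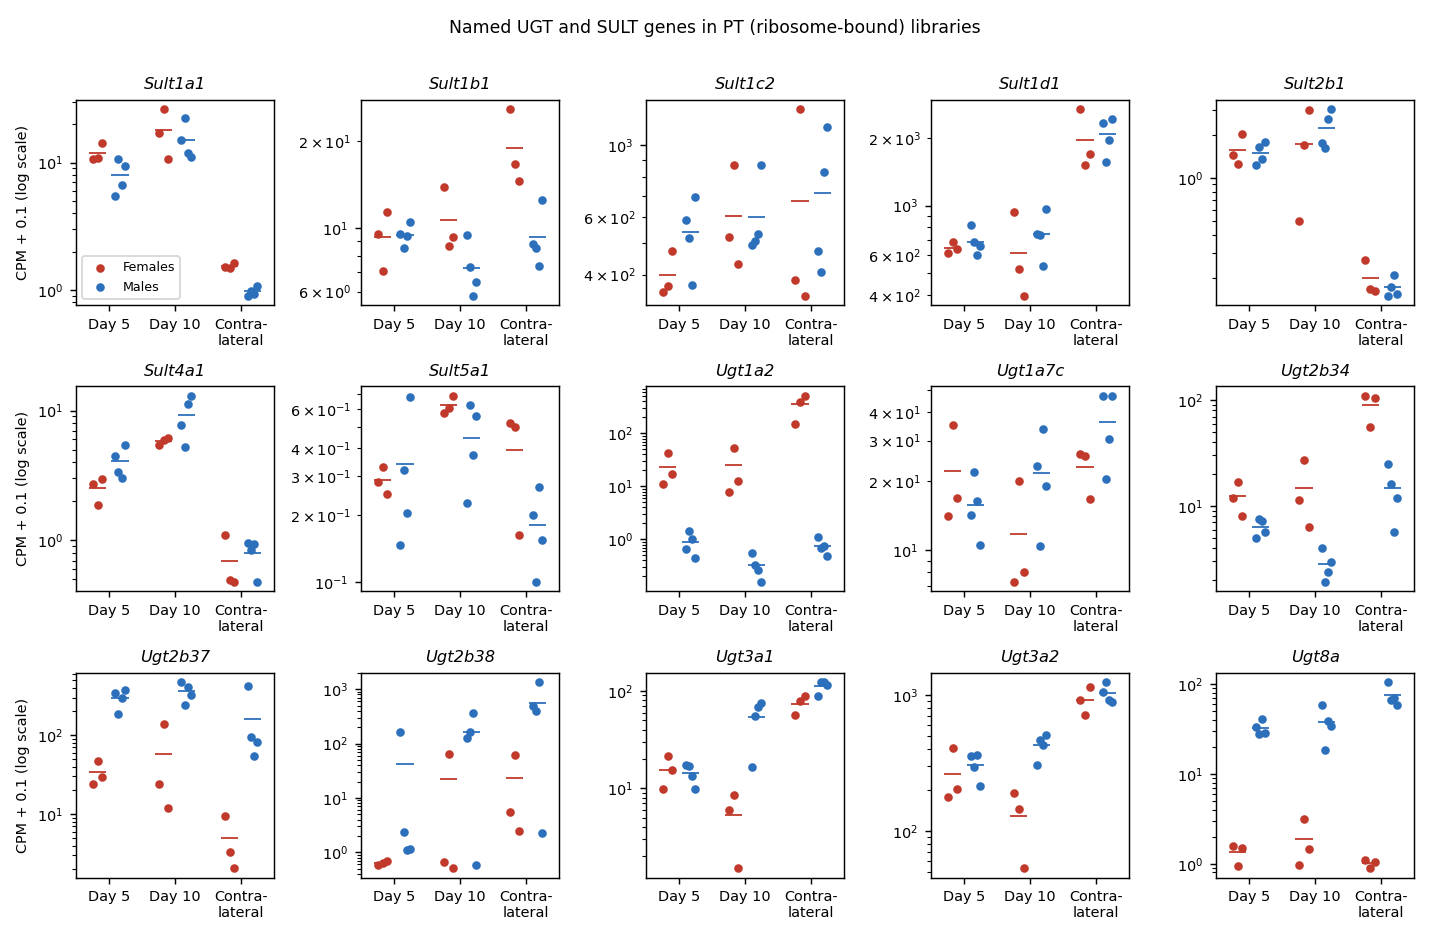
Level of each of the 15 described genes in every PT library (CPM plus 0.1, log scale) at day 5, at day 10 and in contralateral kidneys, with females in red, males in blue and a bar at each group's mean. Sult1a1 lies at 5.35 to 14.2 CPM at day 5 and 10.5 to 26.1 CPM at day 10, above all contralateral libraries at 0.8 to 1.52 CPM, while Ugt3a2 and Sult1d1 lie below all their contralateral libraries.

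In PT of obstructed kidneys Ugt3a2, the UGT with the highest level per length in contralateral PT, fell at both days, as did Ugt3a1, Ugt1a2 and Ugt2b34. Ugt2b37 rose, and of the SULT genes Sult1d1 fell while Sult1a1, Sult2b1 and Sult4a1 rose. Ugt2b38 was called lower at day 5 and not at day 10, where its wide spread left a fall neither shown nor excluded. At day 5, 13 of 23 tested members were called in PT, 6 higher and 7 lower, and 30.6% of all tested genes were called, 18.2% higher and 12.4% lower. At day 10 the split was again 6 higher and 7 lower, against 31.7% of all genes, 19.7% higher and 12% lower. The UGT genes had 2 higher and 6 lower of 15 at each day, and the SULT genes 4 higher and 1 lower of 8. The median log2 change of the tested members was -1.06 at day 5 and -1.0 at day 10, where that of all tested genes was 0.05 at each day. In Total, 17 of 24 members were called at day 5, 5 higher and 12 lower, against 32.5% of all genes, 19.2% higher and 13.3% lower. At day 10 in Total, 14 were called, 4 higher and 10 lower, against 34.6% of all genes, 20.9% higher and 13.8% lower.

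Ugt3a2 was the most abundant UGT per length in PT of contralateral kidneys, at 237 ± 55.8 RPKM (SD, n = 7). In humans UGT3A2 joins glucose or xylose rather than glucuronic acid to its substrates. Its PT level was 179, 410 and 203 CPM in females and 359, 294, 365 and 215 CPM in males at day 5. Day 10 libraries had 190, 144 and 53.3 CPM in females and 305, 465, 431 and 505 CPM in males. Contralateral kidneys had 918, 715 and 1138 CPM in females and 1059, 1250, 927 and 889 CPM in males. All 14 obstructed libraries lay below all 7 contralateral ones. The gene fell by 1.78 ± 0.24 on the log2 scale at day 5 (edgeR adjusted p = 3.33e-06) and by 2.09 ± 0.25 at day 10 (edgeR adjusted p = 4.51e-07). In Total it fell by 2.02 ± 0.24 and by 2.55 ± 0.24 (edgeR adjusted p = 1.39e-07 and 4.28e-09).

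Ugt3a1, whose human counterpart transfers N-acetylglucosamine, lies on chromosome 15 like Ugt3a2. At day 5 PT held 9.76, 21.1 and 15.5 CPM in females and 17.1, 17, 13.2 and 9.66 CPM in males. At day 10 PT held 5.82, 8.45 and 1.4 CPM in females and 16.4, 55.3, 68.6 and 74.4 CPM in males. Contralateral PT held 56, 78.1 and 87.9 CPM in females and 89.3, 124, 124 and 116 CPM in males. Every library of day 5 lay below the contralateral ones, whereas 2 males of day 10 came within the contralateral range of females. The fall was 2.63 ± 0.34 at day 5 and 2.49 ± 0.34 at day 10 in PT (log2 scale, edgeR adjusted p = 1.98e-06 and 3.69e-06). In Total Ugt3a1 fell by 2.62 ± 0.39 and by 2.71 ± 0.40 (edgeR adjusted p = 1.47e-05 and 1.25e-05).

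Sult1d1, which in mice sulfates dopamine and other catechols, was the most abundant SULT in contralateral PT at 612 ± 146 RPKM (SD, n = 7). At day 5 its PT level was 613, 688 and 640 CPM in females and 817, 687, 599 and 661 CPM in males. By day 10 it was 932, 522 and 396 CPM in females and 749, 739, 536 and 968 CPM in males. Contralateral PT had 2684, 1515 and 1690 CPM in females and 2340, 1564, 1965 and 2441 CPM in males. No obstructed library reached the contralateral range. Sult1d1 fell by 1.60 ± 0.20 at each day in PT (log2 scale, edgeR adjusted p = 1.07e-06 and 9.63e-07), and in Total by 2.07 ± 0.19 at day 5 and by 2.28 ± 0.19 at day 10 (edgeR adjusted p = 1.77e-09 and 3.18e-10).

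Ugt1a2, an isoform of the Ugt1a locus, was high in females and near absent in males. At day 5 PT held 10.9, 42.5 and 17.4 CPM in females and 0.563, 1.36, 0.895 and 0.338 CPM in males. At day 10 it held 7.89, 53.8 and 12.5 CPM in females and 0.463, 0.234, 0.164 and 0.057 CPM in males. Contralateral PT held 150, 390 and 514 CPM in females and 1, 0.591, 0.666 and 0.378 CPM in males. The female libraries of the obstructed kidneys all lay below the female contralateral ones, while the male libraries were near 1 CPM or lower in every state. Over both sexes Ugt1a2 fell by 1.84 ± 0.50 at day 5 and by 2.75 ± 0.54 at day 10 in PT (log2 scale, edgeR adjusted p = 0.00431 and 0.000293), and the day 10 value was -3.36 without female replicate 2 of day 10. In Total it fell by 2.59 ± 0.33 and by 3.35 ± 0.35 (edgeR adjusted p = 6.6e-07 and 3.02e-08). Reads of the shared Ugt1a exons could belong to several genes, and 54.2 to 96% of the 50-base stretches of the Ugt1a genes were shared with another gene, so their levels depend on how such reads were counted, which is not given in the sources used here.

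Ugt1a7c, an isoform that conjugates phenols, was called in Total and not in PT. In PT its lowest, median and highest libraries were 10.4, 16.3 and 35.1 CPM at day 5 and 7.17, 18.9 and 33.7 CPM at day 10, against 16.6, 26.3 and 47 CPM in contralateral kidneys. The ranges overlapped and the gene was not called in PT (log2 -0.65 at day 5 and -0.91 at day 10). In Total the 3 values were 4.96, 6.77 and 13.3 CPM at day 5 and 3.07, 5.92 and 13.6 CPM at day 10, against 8.96, 21.2 and 33.6 CPM in contralateral kidneys, and it fell by 1.23 ± 0.26 and by 1.75 ± 0.27 (edgeR adjusted p = 0.00034 and 6.64e-06). The day 5 call ended with library size as the only scaling (-0.78). The difference between the fractions in this change was not called for Ugt1a7c (0.56 at day 5 and 0.90 at day 10, PT minus Total, edgeR adjusted p = 0.639 and 0.215).

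Ugt2b34 belongs to the steroid- and bile-acid-conjugating Ugt2b genes. Its PT level was 11.8, 16.9 and 7.99 CPM in females and 4.93, 7.47, 7.16 and 5.56 CPM in males at day 5. At day 10 it was 11.3, 26.9 and 6.2 CPM in females and 3.91, 1.82, 2.3 and 2.85 CPM in males. Contralateral PT had 110, 56.2 and 105 CPM in females and 24.9, 16, 5.55 and 11.9 CPM in males. In females no obstructed library reached the contralateral range, and in males only male contralateral replicate 3 lay within the range of day 5. The gene fell by 2.06 ± 0.32 at day 5 and by 2.56 ± 0.33 at day 10 (log2 scale, edgeR adjusted p = 1.87e-05 and 1.61e-06), and in Total by 2.62 ± 0.31 and by 3.50 ± 0.33 (edgeR adjusted p = 3.21e-07 and 9.77e-09).

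**Figure D2:**
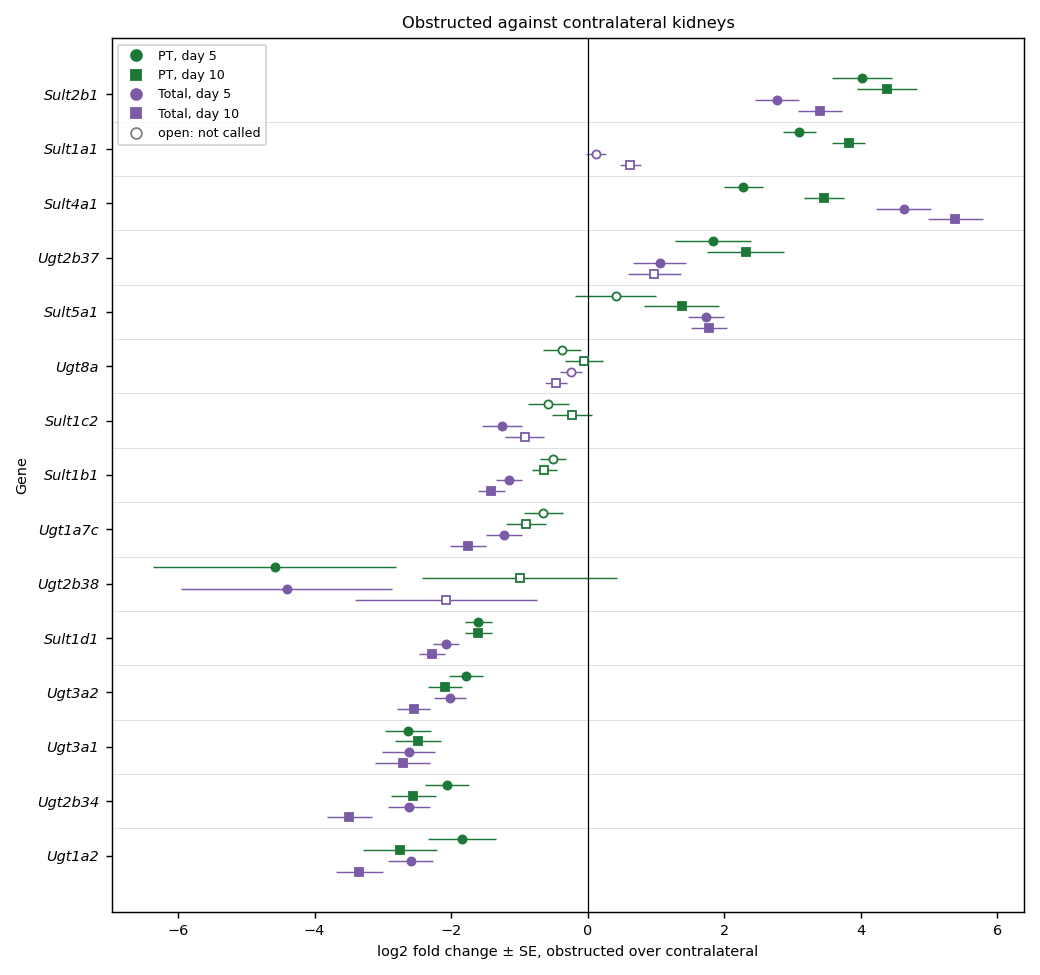
Log2 fold change ± SE of the 15 described genes at day 5 (circles) and day 10 (squares) over contralateral kidneys, in PT (green) and Total (purple), with filled symbols for called changes. Sult2b1, Sult1a1 and Sult4a1 lie at the top, where Sult1a1 is called in PT (3.10 and 3.82) and not in Total (0.12 and 0.62), and the falling UGT genes and Sult1d1 lie at the bottom.

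Ugt2b37 and Ugt2b38 lie in the Ugt2b cluster on chromosome 5 and were called in opposite directions at day 5. Their start regions are shown because the sequences are alike while the levels were not. The windows are chr5:87254739-87255038 for Ugt2b37 and chr5:87424154-87424453 for Ugt2b38 (RefSeq, GRCm38.p6, minus strand, 250 bases before to 50 bases after the start, 5′ to 3′), with the bases that differ between both in capitals.
Ugt2b37: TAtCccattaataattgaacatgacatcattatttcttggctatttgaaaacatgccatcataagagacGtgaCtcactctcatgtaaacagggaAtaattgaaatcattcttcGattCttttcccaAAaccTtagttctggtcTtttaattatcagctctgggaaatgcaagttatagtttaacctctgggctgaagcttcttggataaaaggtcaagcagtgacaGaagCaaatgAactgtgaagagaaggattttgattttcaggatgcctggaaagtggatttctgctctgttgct
Ugt2b38: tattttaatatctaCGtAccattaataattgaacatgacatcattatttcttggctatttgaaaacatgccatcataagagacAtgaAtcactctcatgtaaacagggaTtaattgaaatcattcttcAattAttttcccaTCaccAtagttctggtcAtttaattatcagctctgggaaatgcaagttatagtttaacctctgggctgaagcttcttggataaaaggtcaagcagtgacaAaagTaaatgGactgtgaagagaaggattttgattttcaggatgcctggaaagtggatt
Over 286 aligned bases the windows had 271 identical bases, 15 mismatches and no gap, an identity of 94.8%. The transcripts are close too, since 18.3% of the 50-base stretches of Ugt2b37 and 37.4% of those of Ugt2b38 also occur in another gene, so part of their reads may be uncertain.

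Ugt2b37 was higher in obstructed PT. At day 5 it stood at 24.2, 46.8 and 29.9 CPM in females and 341, 185, 294 and 379 CPM in males. At day 10 it stood at 24.1, 137 and 11.8 CPM in females and 474, 243, 409 and 324 CPM in males. Contralateral PT had 9.45, 3.17 and 1.96 CPM in females and 418, 94.6, 53.7 and 82.1 CPM in males. All obstructed female libraries exceeded the contralateral females, whereas the males overlapped through male contralateral replicate 1. Over both sexes Ugt2b37 rose by 1.84 ± 0.55 at day 5 and by 2.31 ± 0.56 at day 10 (log2 scale, edgeR adjusted p = 0.00961 and 0.00197), and the day 10 value was 1.5 without female replicate 2 of day 10. In Total the change was 1.06 ± 0.39 at day 5 (edgeR adjusted p = 0.0259), and 0.97 at day 10, under 2-fold. The mean Total level did not rise, at 84.5 CPM at day 5 and 87.6 CPM at day 10, against 89.4 CPM in contralateral kidneys. At day 5 all female Total libraries exceeded the contralateral females, whereas the males overlapped theirs. At day 10 both sexes overlapped their contralateral libraries in Total. The Total call at day 5 ended, with values of 0.89 to 0.99, without any of 6 libraries: male contralateral replicates 2 and 4, female contralateral replicate 2, male day 5 replicates 3 and 4 and female day 5 replicate 2.

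Ugt2b38 varied widely between the libraries of a group. In PT it had 0.488, 0.537 and 0.592 CPM in females and 166, 2.24, 1 and 1.06 CPM in males at day 5. At day 10 it had 0.558, 65.3 and 0.408 CPM in females and 128, 160, 369 and 0.485 CPM in males. Contralateral PT had 5.35, 62.2 and 2.34 CPM in females and 494, 395, 1362 and 2.16 CPM in males. Total libraries were high and low under the same numbers as PT, with 71.2, 1.42, 1.77 and 1.54 CPM in males at day 5, 33.6, 79.1, 196 and 0.59 CPM in males at day 10 and 307, 330, 1205 and 1.85 CPM in contralateral males. Female replicate 2 was the high one of its group in Total as in PT, with 13.4 CPM at day 10 and 35 CPM in the contralateral group. The log2 change was -4.59 ± 1.78 at day 5 in PT (edgeR adjusted p = 0.0389) and -4.41 ± 1.55 in Total (edgeR adjusted p = 0.0227), while day 10 was not called in PT (-1.0 ± 1.43) or in Total (-2.08). Every day 10 male lay below the contralateral male of the same number in PT and in Total. Females 1 and 3 did so in PT, while female 2 did not (65.3 against 62.2 CPM). By the correlation of deviations from group means, the numbers paired these states in Total (r = 0.124 to 0.417). In PT they did not (r = -0.222 to 0.51), so the match by number has no support there. With this wide spread a fall at day 10 was neither shown nor excluded. The PT call at day 5 moved to -7.03 without male day 5 replicate 1. It ended, with values of -4.63 to -3.27, without male contralateral replicate 3, female contralateral replicate 2, male day 5 replicates 2, 3 and 4, or any of the 3 female libraries of day 5. Without a low-count filter and with the share of Lars2 counts as covariate it ended as well, at -4.58 each. In Total the day 5 value was -6.22 without male day 5 replicate 1, and the call ended at -4.46 to -3.47 without female contralateral replicate 2 or any of the 3 female libraries of day 5.

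**Figure D3:**
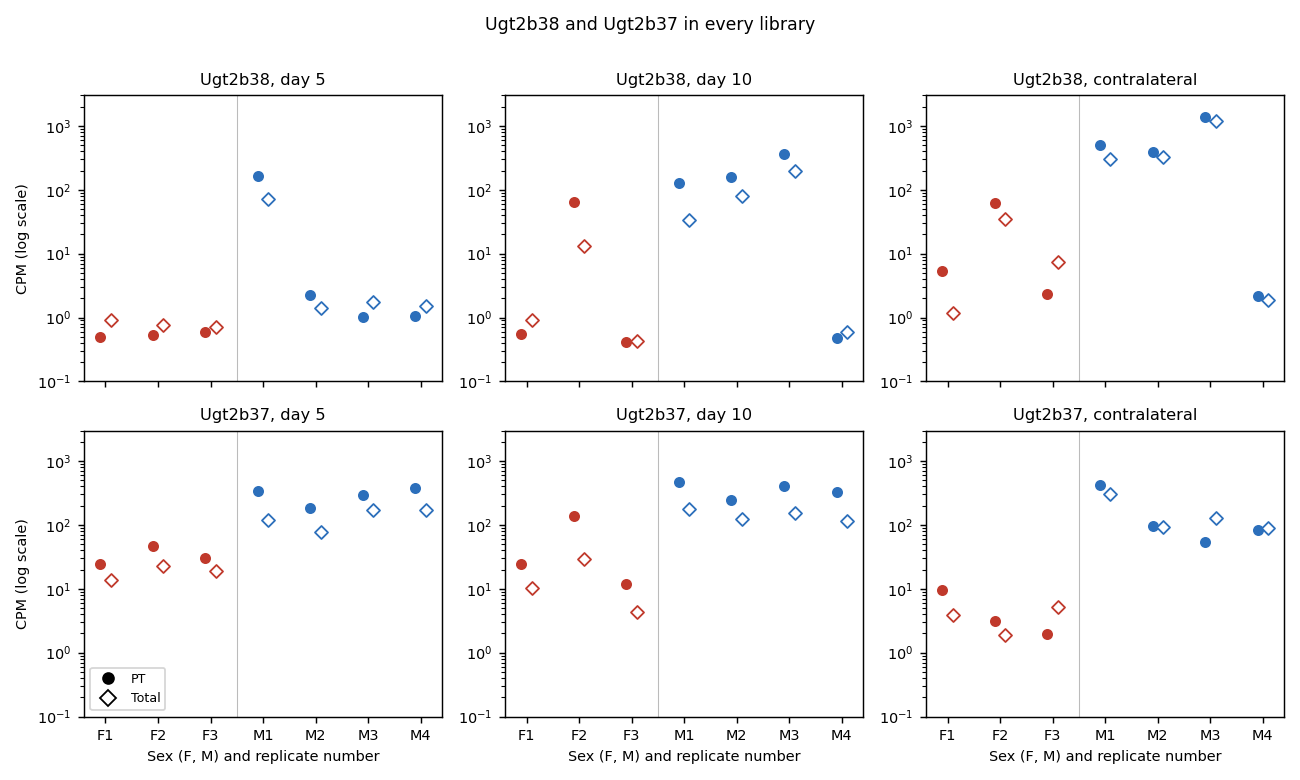
Level of Ugt2b38 (top) and Ugt2b37 (bottom) in every library (CPM, log scale), by sex and replicate number, with PT as filled circles and Total as open diamonds, at day 5, at day 10 and in contralateral kidneys. Ugt2b38 runs between 2.16 and 1362 CPM in contralateral male PT, and PT and Total points of a number lie close to each other, while Ugt2b37 separates males from females.

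Among the SULT genes, Sult1a1, which conjugates simple phenols such as acetaminophen, rose in PT and was not called in Total. At day 5 PT had 10.5, 10.7 and 14.2 CPM in females and 5.35, 10.5, 6.58 and 9.23 CPM in males. At day 10 PT had 17, 26.1 and 10.5 CPM in females and 14.9, 22.1, 11.8 and 11 CPM in males. Contralateral PT had 1.42, 1.39 and 1.52 CPM in females and 0.8, 0.886, 0.833 and 0.972 CPM in males. Every obstructed library exceeded every contralateral one, by 3.10 ± 0.24 at day 5 and 3.82 ± 0.25 at day 10 in the fit (log2 scale, edgeR adjusted p = 1.44e-09 and 7.07e-11). In Total the libraries ranged over 19.3 to 33.2 CPM at day 5 and 21.4 to 43.9 CPM at day 10, against 17.3 to 25.6 CPM in contralateral kidneys, with changes of 0.12 ± 0.15 and 0.62 ± 0.15, neither of them 2-fold. The difference between the fractions in this change was itself called, at 2.95 ± 0.28 for day 5 and 3.23 ± 0.28 for day 10 (log2 scale, edgeR adjusted p = 8.18e-10 and 6.15e-11). The macrophage and fibroblast markers given above rose in the same PT libraries, and in Total the macrophage list summed to 246 to 659 CPM at day 5 and 394 to 759 CPM at day 10, against 36 to 67.2 CPM in contralateral kidneys. Their part in the change of Sult1a1 was not tested. Of the other marker lists that were higher in Total, some fell in PT, some rose and some overlapped contralateral PT. Loop and distal tubule markers summed to 107 to 209 CPM in contralateral PT. They had 40.8 to 66.5 CPM at day 5 and 44.6 to 144 CPM at day 10. Collecting duct markers fell as well. Lymphocyte markers had 0.063 to 0.4 CPM in contralateral PT, 2.3 to 6.43 CPM at day 5 and 3.1 to 8.25 CPM at day 10. Endothelial markers had 2.35 to 6.69, 5.02 to 7.69 and 7.23 to 11.5 CPM in the same order. Podocyte, erythrocyte and urothelium sums overlapped contralateral PT at both days. The part of these cells in the change of Sult1a1 was not tested either.

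Sult2b1, which sulfates cholesterol and hydroxysteroids, was almost absent from contralateral PT. Its lowest, median and highest PT libraries had 1.13, 1.34 and 1.92 CPM at day 5 and 0.398, 1.64 and 2.91 CPM at day 10, against 0.05, 0.066 and 0.167 CPM in contralateral kidneys. The groups did not overlap, and the gene rose by 4.02 ± 0.44 and by 4.38 ± 0.44 (log2 scale, edgeR adjusted p = 1.75e-07 and 3.88e-08). Total had 2.36 to 6.38 CPM at day 5 and 3.04 to 8.96 CPM at day 10, against 0.122 to 1.11 CPM in contralateral kidneys, and the gene rose by 2.78 ± 0.32 and by 3.40 ± 0.32 (edgeR adjusted p = 1.11e-07 and 3.75e-09).

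Sult4a1, best known from brain and with little known catalytic activity, rose at day 5 and stood higher again at day 10. At day 5 PT had 2.62, 1.77 and 2.88 CPM in females and 4.36, 3.25, 2.95 and 5.36 CPM in males. At day 10 PT had 5.34, 5.79 and 6.02 CPM in females and 7.66, 5.1, 11.2 and 12.9 CPM in males. Contralateral PT had 1, 0.396 and 0.379 CPM in females and 0.85, 0.739, 0.833 and 0.378 CPM in males. No state overlapped contralateral kidneys, while the highest male library of day 5 lay within the range of day 10. The rise over contralateral kidneys was 2.28 ± 0.29 at day 5 and 3.46 ± 0.29 at day 10 (log2 scale, edgeR adjusted p = 1.1e-06 and 3.21e-09). Day 10 exceeded day 5 by 1.19 ± 0.25 (edgeR adjusted p = 0.0352), the single member called in that comparison, where 0.442% of all genes were called. That last call ended, with values of 1.07 to 1.27, without any of 9 libraries: all 3 females of day 5, males 1, 2 and 3 of day 5, males 3 and 4 of day 10 or female 3 of day 10. It also ended with library size as the only scaling (1.17, edgeR adjusted p = 0.0513).

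In Total, Sult4a1 had 3.73 to 11.1 CPM at day 5 and 6.28 to 13.6 CPM at day 10, against 0 to 0.836 CPM in contralateral kidneys, of which female contralateral replicates 2 and 3 had no count. It rose by 4.63 ± 0.40 and by 5.39 ± 0.40 (log2 scale, edgeR adjusted p = 1.27e-09 and 7.75e-11). These values were 6.81 and 7.57 without female contralateral replicate 1, the only female contralateral Total library with counts of this gene, so the sizes depend on a few reads. The change was smaller in PT than in Total by 2.38 ± 0.52 at day 5 and by 1.89 ± 0.52 at day 10 (edgeR adjusted p = 0.00266 and 0.0165). Without the same library these differences were -4.55 and -4.05. The day 10 difference was no longer called, at -1.58 and -1.60, without female contralateral replicate 2 of Total or female contralateral replicate 1 of PT.

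Sult5a1, a SULT with no substrate named here, was mainly a Total transcript. Its lowest, median and highest libraries in Total had 2.62, 6.33 and 15.7 CPM at day 5 and 3.41, 6.76 and 11.1 CPM at day 10, against 0.916, 1.95 and 3.88 CPM in contralateral kidneys. It rose there by 1.73 ± 0.27 and by 1.78 ± 0.27 (log2 scale, edgeR adjusted p = 6.21e-06 and 3.91e-06). In PT all libraries were under 1 CPM, and its day 10 value of 1.38 ± 0.55 (edgeR adjusted p = 0.038) lost its call, at 1.12 to 1.43, without any of 9 libraries: contralateral males 1, 2 and 4, contralateral female 3, males 2 and 4 of day 10 or any of the 3 females of day 10. It also ended without a low-count filter (1.39), with DESeq2 (1.43) and with the share of Lars2 counts as covariate (1.18).

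In Total Sult1c2 was called at day 5 and Sult1b1 at both days, neither was called in PT, and the difference between the fractions in these changes was not called for either. Sult1c2, a kidney and stomach SULT, had 353, 474 and 693 CPM as its lowest, median and highest PT libraries at day 5 and 431, 523 and 868 CPM at day 10, against 344, 471 and 1288 CPM in contralateral kidneys. The ranges overlapped and neither day was called in PT (-0.58 ± 0.29 and -0.24 ± 0.29). In Total the level was 140 to 269 CPM at day 5 and 125 to 341 CPM at day 10, against 190 to 708 CPM in contralateral kidneys, with a fall of 1.26 ± 0.29 at day 5 (log2 scale, edgeR adjusted p = 0.000867). Without female contralateral replicate 2 of Total the value was -0.87, and with library size as the only scaling -0.82, neither of them called. PT minus Total, its changes differed by 0.65 at day 5 and 0.72 at day 10 (edgeR adjusted p = 0.562 and 0.359). Sult1b1, which sulfates thyroid hormones, had 6.99 to 11.2 CPM at day 5 and 5.7 to 13.8 CPM at day 10 in PT, against 7.27 to 25.7 CPM in contralateral kidneys, and was not called there (-0.51 and -0.64). In Total it had 3.83 to 5.86 CPM at day 5 and 2.44 to 5.98 CPM at day 10, against 8.53 to 18 CPM, without overlap, and fell by 1.16 ± 0.19 and by 1.41 ± 0.20 (edgeR adjusted p = 1.75e-05 and 1.27e-06). The day 5 call ended with library size as the only scaling (-0.72). For Sult1b1 the changes differed by 0.62 and 0.81, PT minus Total (edgeR adjusted p = 0.222 and 0.0501).

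Between day 10 and day 5 in Total no member was called by edgeR, DESeq2 or limma, although 6 of 24 had an unadjusted edgeR p under 0.05. Over all genes 0.393% were called in that comparison.

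The summed level of each family was lower in obstructed PT than in contralateral PT on average. Summed over the UGT members, PT held 579 ± 241 CPM at day 5 and 734 ± 463 CPM at day 10, against 1797 ± 533 CPM in contralateral kidneys (SD, n = 7 each). The SULT members summed to 1178 ± 176 CPM at day 5 and 1331 ± 319 CPM at day 10, against 2738 ± 566 CPM. Per length, Ugt2b37 made up 52.3% (43.8 to 69.3%) of the summed UGT RPKM in male PT at day 5 and 42.3% (32.2 to 56%) at day 10, against 11% (2.51 to 24.4%) in contralateral male PT, with no overlap of either day with the contralateral libraries. Ugt3a2 in females made up 64.8% (63.3 to 65.7%) at day 5 and 46.3% (23.6 to 70.5%) at day 10, against 56.5% (46.9 to 69.2%) in contralateral PT, and these ranges overlapped. In male PT the share of Sult1c2 in the SULT sum was 49.6% (44.2 to 57.1%) at day 5 and 50% (45.3 to 55.2%) at day 10, against 30.2% (21.1 to 38.2%) in contralateral kidneys, without overlap. In females it was 43.7% (40.8 to 48.1%) and 55.1% (41.6 to 66.5%), against 30% (15.9 to 52.8%), and the ranges overlapped. These shares were not tested.

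**Figure D4:**
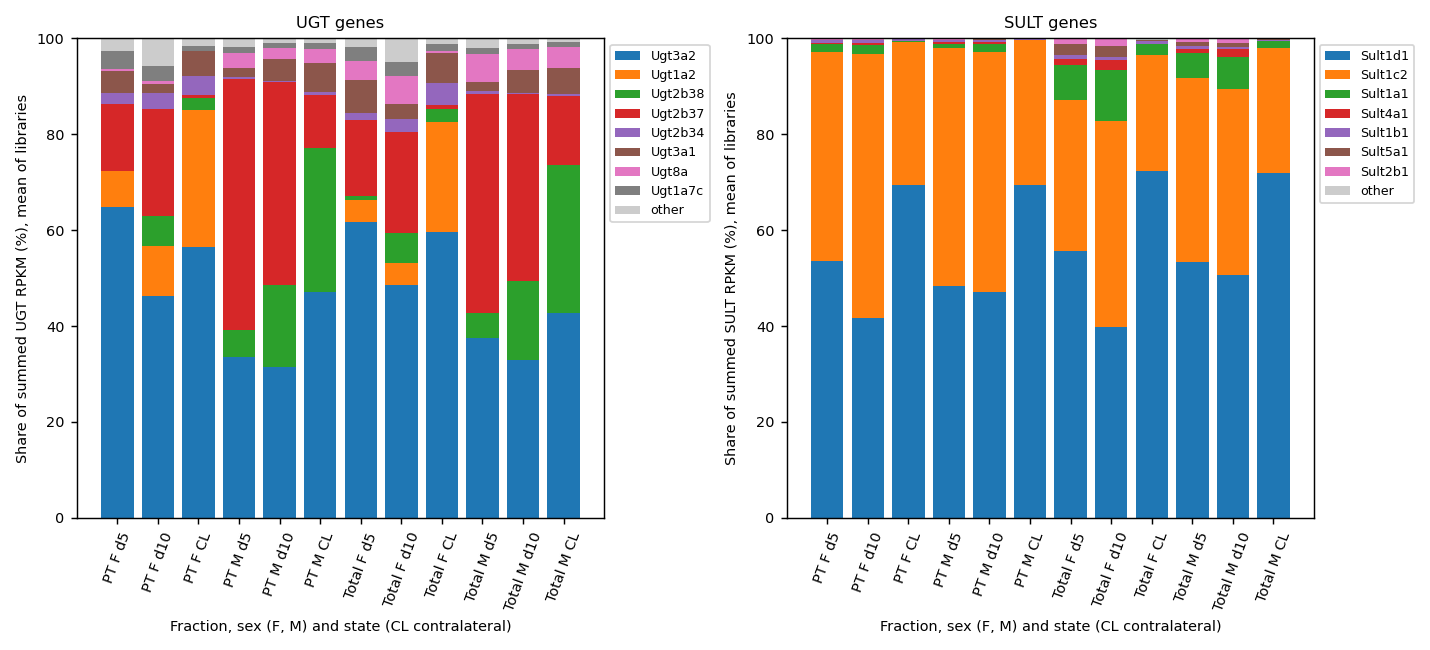
Share of each described gene in the summed RPKM of the UGT members (left) and of the SULT members (right), in percent and as the mean over the libraries of a group, for both fractions, both sexes and the states day 5 (d5), day 10 (d10) and contralateral (CL). Ugt1a2 is visible in females alone, with 28.5% in contralateral female PT, and Sult1c2 in male PT has 49.6% at day 5 and 50% at day 10, against 30.2% in contralateral kidneys.

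Between the fractions, Sult5a1, Sult2b1 and Sult1a1 were lower in PT in every state, and Ugt3a2, Sult1d1 and Sult1c2 were among the members higher in PT at day 10. Of 26 members tested over all libraries, 5 were higher and 8 lower in PT at day 5, where 4.02% of all genes were higher and 23.8% lower. At day 10, 9 were higher and 5 lower, against 7.07% and 23% of all genes, and with library size as the only scaling 4 were higher and 5 lower. In contralateral kidneys 1 was higher and 6 lower, against 1.16% and 22.9%. UGT genes made up 6 of the 9 higher ones at day 10, namely Ugt1a7c, Ugt2a3, Ugt2b34, Ugt2b37, Ugt2b5 and Ugt3a2, with Sult1b1, Sult1c2 and Sult1d1. Ugt3a2 exceeded Total by 1.24 ± 0.25, Sult1d1 by 1.14 ± 0.19 and Sult1c2 by 1.49 ± 0.31 (log2 scale, edgeR adjusted p = 5.19e-05, 3.43e-06 and 8.81e-05). With library size as the only scaling the calls of Ugt3a2 (0.93) and Sult1d1 (0.84) ended. The call of Sult1d1 also ended at 0.99 without male replicate 3 of Total and at 0.93 without female replicate 1 of PT. That of Sult1b1 (1.04 ± 0.19, edgeR adjusted p = 1.51e-05) ended at 0.87 and 0.97 without male or female replicate 3 of Total and at 0.93 without female replicate 1 of PT, and also with library size only (0.78), RLE factors (0.94) and DESeq2 (0.94). Ugt2b37 had 1.66 ± 0.49 (edgeR adjusted p = 0.00421), and 0.89 without female replicate 2 of PT, no longer called.

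Some members were Total genes in every state. Sult5a1 was lower in PT by 5.02 ± 0.40 at day 5, by 4.04 ± 0.36 at day 10 and by 3.67 ± 0.42 in contralateral kidneys (log2 scale, edgeR adjusted p = 1.89e-13, 4.96e-12 and 2.66e-09). Sult2b1 was lower in PT by 1.31 ± 0.30, by 1.5 ± 0.29 and by 2.53 ± 0.48 in the same states (edgeR adjusted p = 0.000363, 4.07e-05 and 3.79e-05). Sult1a1 was lower in PT by 1.37 ± 0.18 at day 5, by 1.09 ± 0.18 at day 10 and by 4.32 ± 0.22 in contralateral kidneys (edgeR adjusted p = 6.29e-08, 3.29e-06 and 1.25e-18). Its day 10 call ended, at -0.99 to -0.89, without male replicate 1 or female replicate 2 of Total, or male or female replicate 3 of PT. Sult1a1 and Sult4a1 were the members whose response differed between the fractions, 2 of 26 at each day, against 4.27% of all genes at day 5 and 5.76% at day 10. Sult4a1 itself was higher in PT by 1.31 ± 0.44 in contralateral kidneys and lower by 1.07 ± 0.29 at day 5 (edgeR adjusted p = 0.0135 and 0.00205). The contralateral value was 3.48 without female replicate 1 of Total, and 1.01 and 1.03, not called, without female replicate 2 of Total or female replicate 1 of PT. The day 5 call ended, at -0.99 to -0.67, without any of 18 libraries. Of Total these were all 4 males and female 3 of day 5, and males 2 and 4 and all 3 females of day 10. Of PT they were males 2 and 3 and females 1 and 2 of day 5, and males 1 and 3 and females 2 and 3 of day 10.

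The calls between the sexes fell almost wholly on UGT genes, with Ugt1a2 and Ugt2b34 higher in females and Ugt8a and Ugt2b37 higher in males. In PT, 2 of 23 members were called between females and males at day 5 (0.851% of all genes), 5 at day 10 (2.22%) and 6 in contralateral kidneys (4.13%). In Total the counts were 3 of 24 at day 5 (0.429% of all genes), 6 at day 10 (1.13%) and 4 in contralateral kidneys (2.76%). Sult1b1 in contralateral PT was the single SULT among them, 1.02 ± 0.26 higher in females (log2 scale, edgeR adjusted p = 0.0211), with 25.7, 16.6 and 14.5 CPM in females and 8.7, 8.42, 7.27 and 12.4 CPM in males. It was no longer called without female replicate 1 (0.73, edgeR adjusted p = 0.189) or without male replicate 1, 2 or 3 (1.00, 0.97 and 0.94).

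Ugt1a2 was the gene with the largest female excess among the described ones. In PT, females exceeded males by 4.88 ± 0.69 at day 5, by 6.74 ± 0.79 at day 10 and by 9.01 ± 0.79 in contralateral kidneys (log2 scale, edgeR adjusted p = 0.000705, 4.6e-05 and 5.16e-07). Without female replicate 2 the day 5 value was 4.17 and the day 10 value 5.52, and without male replicate 1 the day 10 value was 7.42. In Total it had 3.97, 11.2 and 5.03 CPM in females and 0.238 to 0.559 CPM in males at day 5, 2.08, 5.3 and 2.44 CPM in females and 0.0787 to 0.542 CPM in males at day 10, and 97, 179 and 123 CPM in females and 0.916, 0.714, 0.56 and 1.02 CPM in males of contralateral kidneys. The sexes did not overlap in any state, with differences of 3.92 ± 0.45 at day 5, 3.41 ± 0.50 at day 10 and 7.37 ± 0.46 in contralateral kidneys (log2 scale, edgeR adjusted p = 4.09e-05, 0.000496 and 1.22e-09).

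The fall of Ugt1a2 itself differed between the sexes in Total, by -3.45 ± 0.66 at day 5 and -3.96 ± 0.73 at day 10 (females minus males, log2 scale, edgeR adjusted p = 0.0127 and 0.0204). Females fell by 4.32 ± 0.44 at day 5 and by 5.33 ± 0.47 at day 10 (edgeR adjusted p = 1.16e-07 and 1.11e-08). Males had -0.87 at day 5 (edgeR adjusted p = 0.158) and -1.37 ± 0.54 at day 10 (edgeR adjusted p = 0.0412). Contralateral males were already low in Total, at the values given above, and 3 counts equal 0.0687 to 0.322 CPM. A fall as large as that of females could hardly be seen in males, so the sizes of these differences depend on a few male reads. The day 5 difference was -4.05 without female day 5 replicate 2, and the day 10 difference lost its call, at -3.77 to -3.45, without male day 10 replicate 2 or 3, female day 10 replicate 1 or 3 or female contralateral replicate 2. It was also lost without a low-count filter (-4.0) and with the Lars2 covariate (-3.52). In PT no member was called for a sex difference in its response by edgeR at either day (4 members with an unadjusted p under 0.05 at each day), while 0.502% of all genes were called at day 5 and 0.208% at day 10. DESeq2 called 1 member at day 5 and 2 at day 10 in PT, and its share of all genes is not given.

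Ugt8a was the male counterpart. In PT it stood at 1.46, 0.845 and 1.4 CPM in females and 33.5, 27.9, 40.8 and 28.9 CPM in males at day 5. At day 10 it stood at 0.876, 3.07 and 1.36 CPM in females and 58.6, 18.4, 39.4 and 34 CPM in males. Contralateral PT had 1, 0.792 and 0.948 CPM in females and 106, 66.3, 69.6 and 59.2 CPM in males. Male and female libraries were far apart in every state, with log2 differences of -4.70 ± 0.42, -4.39 ± 0.40 and -6.38 ± 0.45 (females over males, edgeR adjusted p = 4.25e-07, 4.41e-07 and 7.34e-09), and the day 10 value was -5.01 without female replicate 2.

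In Total, Ugt8a had 10.1, 7.04 and 7.37 CPM in females and 41.3, 26.9, 32.9 and 29.4 CPM in males at day 5. At day 10 Total had 6.23, 5.36 and 6.3 CPM in females and 33.4, 25.5, 38.1 and 29.1 CPM in males. Contralateral Total had 4.39, 4.66 and 3.43 CPM in females and 120, 68.6, 90.6 and 62.9 CPM in males. Females were lower than males by 1.99 ± 0.23 at day 5, by 2.39 ± 0.24 at day 10 and by 4.34 ± 0.26 in contralateral kidneys (log2 scale, edgeR adjusted p = 2.36e-05, 1.84e-06 and 1.48e-10). The response differed between the sexes, by 2.36 ± 0.32 at day 5 and 1.95 ± 0.32 at day 10 (females minus males, edgeR adjusted p = 0.000462 and 0.00556). Males fell by 1.43 ± 0.20 and by 1.45 ± 0.20 (edgeR adjusted p = 2.6e-06 and 2.14e-06), and females had 0.93 at day 5 (edgeR adjusted p = 0.00452, under 2-fold) and 0.51 at day 10. These Total responses were 2 of the 24 tested members at each day, Ugt1a2 and Ugt8a, against 0.59% of all genes at day 5 and 0.185% at day 10. Averaged over the sexes, Ugt8a was not called in any state comparison (-0.38 and -0.06 in PT, -0.25 and -0.47 in Total). This average joins unlike values in PT too. By the PT levels given above, every obstructed male library lay below every contralateral male, narrowly at day 10, while females stayed low in all states. The sex difference in response was not called in PT.

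**Figure D5:**
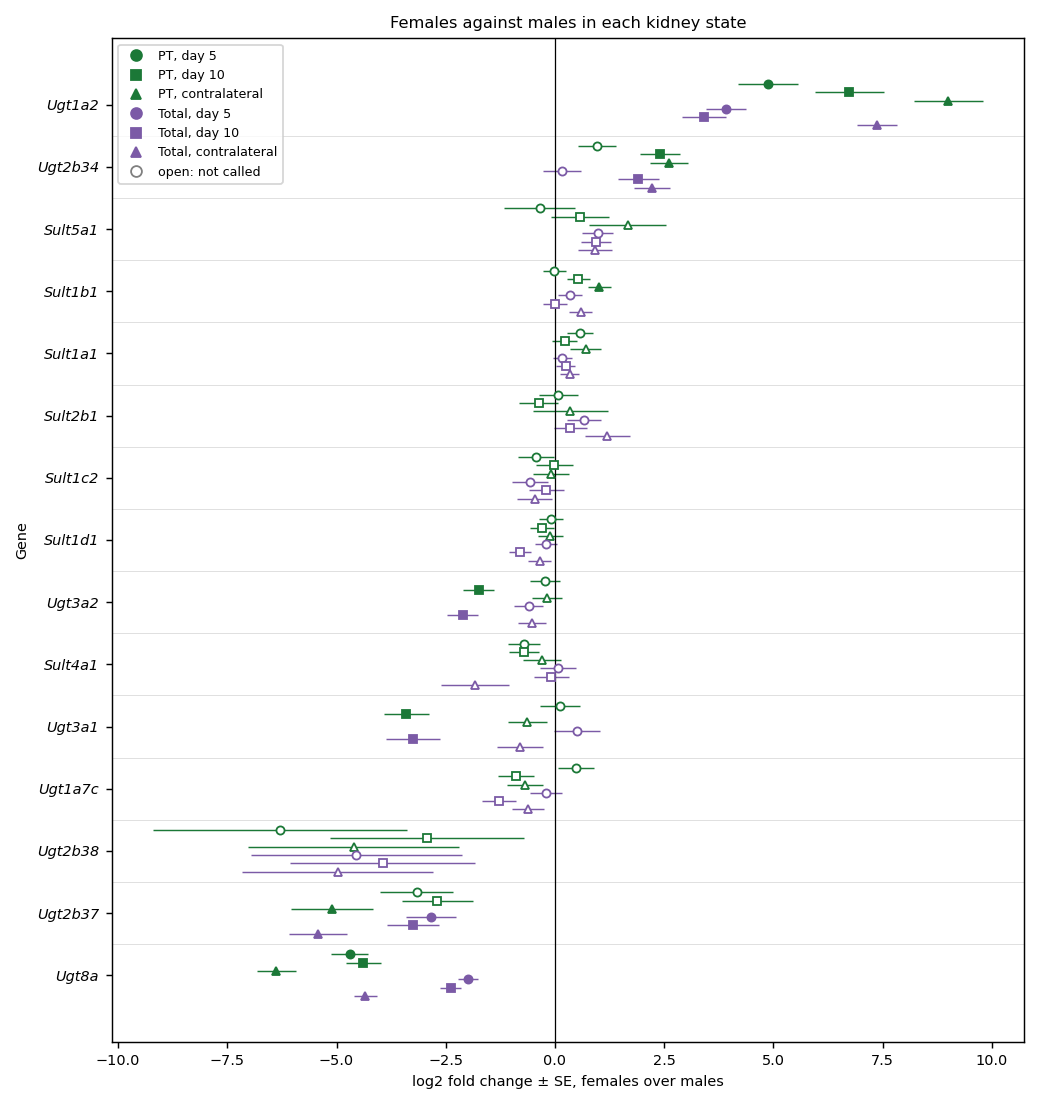
Log2 fold change ± SE of females over males for the 15 described genes at day 5 (circles), at day 10 (squares) and in contralateral kidneys (triangles), in PT (green) and Total (purple), with filled symbols for called differences. Ugt1a2 lies furthest to the right, with 9.01 in contralateral PT, Ugt8a and Ugt2b37 lie to the left, and Ugt3a1 and Ugt3a2 are called at day 10.

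Ugt2b37 and Ugt2b34 differed between the sexes in opposite directions. Ugt2b37 was lower in females by 5.10 ± 0.94 in contralateral PT (log2 scale, edgeR adjusted p = 0.00248), a value that was -4.01 without male replicate 1 and -6.01 without female replicate 1. Its obstructed PT values of -3.16 at day 5 and -2.69 at day 10 were not called (edgeR adjusted p = 0.0995 and 0.103). In Total it had 13.9, 22.5 and 19 CPM in females and 119, 77.1, 171 and 168 CPM in males at day 5, 10.2, 29.5 and 4.39 CPM in females and 179, 123, 153 and 113 CPM in males at day 10, and 3.88, 1.86 and 5.2 CPM in females and 304, 93.1, 128 and 89.8 CPM in males of contralateral kidneys. The Total differences were -2.84 ± 0.57, -3.25 ± 0.59 and -5.43 ± 0.67 in that order (edgeR adjusted p = 0.0292, 0.00619 and 6.96e-05). The day 5 call ended, at -3.01 to -2.71, without male replicate 1 or 3 or female replicate 2 or 3 of day 5, and at -2.86 without a low-count filter, and the day 10 value was -4.31 without female replicate 2.

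Ugt2b34 was higher in females by 2.40 ± 0.45 at day 10 and by 2.61 ± 0.44 in contralateral kidneys in PT (log2 scale, edgeR adjusted p = 0.00457 and 0.000721), with 0.96 at day 5, not called (edgeR adjusted p = 0.453). The day 10 value was 1.67 without female replicate 2. Contralateral Total had 60.7, 34.5 and 56.1 CPM in females and 17, 13.5, 4.86 and 7.76 CPM in males, a difference of 2.23 ± 0.41 (edgeR adjusted p = 0.00203). A Total difference of 1.91 ± 0.47 at day 10 (edgeR adjusted p = 0.0458) lost its call, at 1.66 to 2.12, without any of 14 libraries: all 4 males and females 1 and 2 of day 10, males 1, 2 and 3 and female 1 of day 5, and males 2 and 4 and females 1 and 3 of contralateral kidneys. Library size as the only scaling (1.77), no low-count filter (1.88) and the Lars2 covariate (2.11) ended it too. Ugt2b38, with its wide spread, was not called between the sexes in any state.

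Ugt3a1 and Ugt3a2 were called between the sexes at day 10, when both were lower in females. In PT Ugt3a1 was lower in females by 3.40 ± 0.52 and Ugt3a2 by 1.75 ± 0.35 (log2 scale, edgeR adjusted p = 0.000639 and 0.00798), and no female library of day 10 reached the males for either gene. In Total Ugt3a1 had 3.7, 3.87 and 1.06 CPM in females and 5.19, 29.5, 40.5 and 32.2 CPM in males, and Ugt3a2 had 74.8, 38 and 30.1 CPM in females and 89, 260, 242 and 238 CPM in males. Females were lower in Total by 3.24 ± 0.61 and by 2.11 ± 0.35 (edgeR adjusted p = 0.00886 and 0.00119), where the call of Ugt3a1 ended at -2.81 without female replicate 3. The difference in response between the sexes was not called for either gene, with -2.77 for Ugt3a1 at day 10 in PT (edgeR adjusted p = 0.131), so a sex difference particular to day 10 was not shown. The sum of the proximal tubule markers moved the same way, at 894 to 1571 CPM in females and 1885 to 4283 CPM in males of day 10 PT, and its part in these differences was not tested. The UGT members as a whole summed to 275 ± 182 CPM in females (n = 3) and 1078 ± 194 CPM in males (n = 4) of day 10 PT.

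Of the genes that supply the donors, Papss2, Slc26a1 and Bpnt1 fell in PT at both days. Of 8 tested genes of sulfate and PAPS supply, 1 was higher and 3 lower in PT at day 5, where 18.2% of all genes were higher and 12.4% lower, and 3 were lower at day 10, against 12% of all genes. Papss2, a PAPS synthase, averaged 206 ± 29.7 CPM at day 5 and 202 ± 50.1 CPM at day 10, against 791 ± 372 CPM in contralateral PT (SD, n = 7 each), and fell by 1.90 ± 0.13 and by 1.95 ± 0.13 (log2 scale, edgeR adjusted p = 3.16e-10 and 1.79e-10). Slc26a1, the basolateral sulfate exchanger, fell by 1.44 and by 1.53, and Bpnt1, which clears the spent donor, by 1.23 and by 1.26. Slc13a1, the apical sulfate carrier, rose by 1.04 at day 5 and had 0.75 at day 10, under 2-fold. The 3 genes of UDP-glucuronate supply were not called in PT, with Ugp2 at -0.88 and -0.87, Slc35d1 at -0.87 and -0.98 and Ugdh at -0.20 and -0.26. In Total 2 of those 3 fell at each day, Ugp2 by 1.16 and by 1.13 and Slc35d1 by 1.3 and by 1.5, and 4 of 8 PAPS supply genes fell at each day, against 13.3% of all genes at day 5 and 13.8% at day 10.

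In a list of Gusb (beta-glucuronidase) and sulfatase genes, 1 of 4 tested rose and 1 fell in PT at each day. Of all genes 18.2% and 19.7% rose and 12.4% and 12% fell at day 5 and day 10. Both called genes encode lysosomal sulfatases, and whether they act on SULT products was not tested. Arsa rose by 1.54 and by 1.41, and Arsb fell by 2.21 and by 2.02 (log2 scale, day 5 and day 10). In Total none was higher and 2 lower at day 5, and 1 higher and 2 lower at day 10. Of all genes in Total, 19.2% were higher and 13.3% lower at day 5, and 20.9% and 13.8% at day 10. Of 15 tested regulators of conjugation genes, 2 rose and 5 fell in PT at each day, where 18.2% of all genes rose and 12.4% fell at day 5 and 19.7% rose and 12% fell at day 10. Cebpb rose by 2.55 and by 1.86, and Ahr, the aryl hydrocarbon receptor that switches on Ugt1a genes, by 1.5 and by 1.4. Nr1i3, a receptor for drugs and bile pigments, fell by 3.39 and by 3.12 and Hnf4a, a keeper of tubule and liver identity, by 1.19 and by 1.24, with Ppara, Esr1 and Rxra also lower. Total had 1 higher and 6 lower at day 5 and 2 higher and 6 lower at day 10, against 19.2% higher and 13.3% lower of all genes at day 5 and 20.9% and 13.8% at day 10.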

How the data were processed

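RNA-seq data of 42 libraries were used, mapped to groups by their titles. The authors' deposited table of raw counts for 40701 gene symbols was the base of all tests, and the authors' deposited RPKM (reads per kilobase of gene and M reads) were used for levels per length. STAR 2.0.4b, Subread and featureCounts 1.4.5 are named in the submitters' processing notes. The genome build, annotation, strand setting, read length and the treatment of reads in exons shared by several genes are not given in the sources used here, so paralogs, Ugt1a isoforms and antisense genes may share reads.

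Tests on the counts used edgeR 4.0.16 under R 4.3.3, with filterByExpr by group, TMM factors, and robust quasi-likelihood fits with 1 mean per group to the 21 PT libraries, the 21 Total libraries and, across fractions, all 42. Comparisons were each day against contralateral and day 10 against day 5, PT against Total and females against males per state, and how far the response to each day differed between fractions or sexes (interactions). The p-values were adjusted (Benjamini-Hochberg) over all tested genes, and a call needed an adjusted p under 0.05 and a 2-fold change. Printed CPM are counts per M counts of the TMM-scaled library size in the fit over all libraries. SE was taken from the log2 change and its F statistic. Values per sex are given only where the sex difference in response was called. For a count of 0 the limit is 3 counts over a library's total counts, without TMM factors, which covers counting error only.

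Described genes were the members called in any comparison with a group mean of at least 5 CPM, and the members and lists were chosen with earlier results of these data known. A single regulator of the lists is not reported here. Alternatives were RLE factors, library size only, no low-count filter, at least 5 CPM in at least 3 libraries, the tool DESeq2 1.42.0, the tool limma 3.58.1 on log2(RPKM + 1) with genes of at least 0.5 RPKM, a replicate block, the share of Lars2 (0.239 to 4.1% of counts) as covariate, and each library left out. The labels do not say what a replicate number shares. By the correlation of deviations from group means, same-numbered libraries were paired between contralateral and day 10 in Total (r = 0.124 to 0.417) and between PT and Total in contralateral kidneys (0.347 to 0.626) and at day 10 (0.141 to 0.797), and not in the other comparisons. Promoter windows came from a RefSeq table on GRCm38.p6 and were aligned with Biopython 1.88 with free ends, and 50-base stretches shared between genes were counted in GENCODE M21 transcripts, used by symbol alone.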

Additional observations from a re-analysis of the deposited data

Results flagged for a closer look

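In 5 of the 90 groups of 4 male libraries examined (described genes by state and fraction), the highest or lowest library lay far from the other 3, and chance alone gives about 1 group in 20. Ugt2b38 at day 5 had 166 CPM in PT and 71.2 CPM in Total of male replicate 1, where the other males had 1 to 2.24 CPM in PT and 1.42 to 1.77 CPM in Total. Ugt2b37 had 418 CPM in PT of contralateral male replicate 1, where the others had 53.7 to 94.6 CPM. Sult1c2 had 868 CPM in PT of male replicate 4 at day 10, where the others had 494 to 534 CPM. Ugt3a2 had 89 CPM in Total of male replicate 1 at day 10, where the others had 238 to 260 CPM.

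The response to obstruction differed between the sexes in Total for Ugt1a2 (-3.45 at day 5 and -3.96 at day 10, females minus males on the log2 scale) and for Ugt8a (2.36 and 1.95). It differed between the fractions for Sult1a1 (2.95 at day 5 and 3.23 at day 10, PT minus Total) and for Sult4a1 (-2.38 and -1.89). Each of these differences was tested as an interaction in edgeR, with the values and the libraries they rest on given in the report. The low level of Ugt1a2 in males limits what its difference can show.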

How the results depend on the processing

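Of 101 calls of described genes, 62 were kept under every alternative and none reversed. The calls lost were 1 of 101 with RLE factors, 12 with library size only, 5 with no low-count filter, 0 of 98 with the filter of 5 CPM, 2 with DESeq2, 32 of 100 with limma on log2(RPKM + 1), 4 with the Lars2 covariate and 97 of 2708 over the single omissions. The limma scale shrinks changes of low genes: Sult2b1 in PT had 0.78 at day 5 and 0.90 at day 10. Calls of abundant genes ended with limma too. Examples were Ugt3a2 (0.95) and Sult1d1 (0.87) for PT against Total at day 10. Ugt2b38 at day 5 in PT was another (-3.01, limma adjusted p = 0.0643). Losses with limma were left out of the paragraphs on single genes.

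Counts of called members moved as follows. With limma on log2(RPKM + 1) they were 7 at day 5, 8 at day 10 and 0 for day 10 against day 5 in PT, 9 at each day in Total, 2, 3 and 5 for PT against Total in contralateral kidneys, at day 5 and at day 10, 1 for the sex by day 5 and 1 for the sex by day 10 interaction in PT, and 1 for the sex by day 10 interaction in Total. With the filter of 5 CPM they were 8 at day 10 in PT and 1 for the sex by day 5 interaction in PT. With library size only they were 0 for day 10 against day 5 in PT and 9 for PT against Total at day 10. DESeq2 gave 4 for females against males at day 5 in PT and 1 and 2 for the sex by day 5 and day 10 interactions there. The Lars2 covariate gave 1 for the sex by day 5 interaction in PT and 1 for the sex by day 10 interaction in Total, where no filter also gave 1. Leaving out single libraries gave 0 to 1 for day 10 against day 5 in PT, 1 to 3 for the fraction by day 10 interaction, 0 to 1 for each sex interaction in PT and 1 to 4 for the sex by day 10 interaction in Total. The cause was not tested in any of these. The shares of all genes called under these alternatives and under the replicate block are not given. The counts therefore show only how the member calls moved.

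Library size scaling in place of TMM moved the median log2 change of all genes by 0.47 at day 5 and 0.44 at day 10 in PT, by 0.44 and 0.36 in Total, and by -0.31, -0.26 and -0.26 for PT against Total in contralateral kidneys, at day 5 and at day 10. The share of higher calls over all genes was then 83.2% in place of 59.6% at day 5 and 82.9% in place of 62.2% at day 10 in PT, 80.4% in place of 59% and 76% in place of 60.3% in Total, and 10.6% in place of 23.5% for PT against Total at day 10. The members split into 6 higher and 7 lower at day 5 and 7 higher and 6 lower at day 10 in PT, 6 and 8 at day 5 and 6 and 9 at day 10 in Total, and 4 and 5 for PT against Total at day 10.

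The replicate block held 1 effect per sex and replicate number over all libraries of a fit. It did not pair PT with Total within each state. With the replicate block, 74 of 76 calls of described genes were kept. Where the numbers pair the libraries none of these was lost, and it called 15 members in place of 14 in Total at day 10 (11 lower in place of 10) and 15 in place of 14 for PT against Total at day 10 (10 higher in place of 9). The 2 lost were Sult5a1 at day 10 in PT and Sult4a1 for day 10 against day 5, where the numbers were not paired, so that the block gave 0 members for day 10 against day 5 in PT and 1 for the sex by day 5 interaction. Ugt2b38 at day 5 in Total had -3.55 with the block. No paired analysis was possible for females against males because the numbers do not link a female to a male library.

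Depth limits the low members: 3 counts equal 0.0687 to 0.322 CPM by total counts, without TMM factors. Sult2b1 and Sult5a1 in contralateral PT and Sult4a1 in contralateral Total had libraries at or under that level. So did Ugt1a2 in males of day 10, down to 0.057 CPM in PT and 0.0787 CPM in Total. The sizes of the day 10 sex differences of Ugt1a2, and of the sex difference in its day 10 response in Total, thus depend on a few reads.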

Other observations

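Members below the level of the described ones also changed. Ugt1a1, which conjugates bilirubin, had 1.0 to 3.73 CPM in female and 0 to 0.0739 CPM in male contralateral PT, 88 against 2 counts, a ratio of 71.8 with a counting interval of 19.3 to 602. Sult1e1, the estrogen sulfotransferase, was called higher in PT at day 5, with 72 counts over 7 libraries against 7 counts in contralateral kidneys. Sult2a3 in Total had 0 to 0.27 CPM at day 5 and 0 to 0.271 CPM at day 10, against 0.836 to 2.65 CPM in contralateral kidneys, and fell by 3.55 ± 0.51 and by 3.35 ± 0.50 (edgeR adjusted p = 2.3e-06 and 4.12e-06). Ugt1a6b fell in PT by 3.37 ± 0.86 and by 2.44 ± 0.76 (edgeR adjusted p = 0.00233 and 0.00927), at levels under 4 CPM. Ugt2b5, a close copy of Ugt2b37 and Ugt2b38 in its start region (89.1% and 90% identity), rose in PT by 1.52 ± 0.49 and by 1.60 ± 0.49 (edgeR adjusted p = 0.0122 and 0.00842). Of its 50-base stretches 41.7% also occur in another gene, so part of its reads may be uncertain. Sult6b1 rose in Total by 2.21 ± 0.65 and by 1.88 ± 0.66, and Ugt2a3 fell at day 10 by 1.49 ± 0.49 in PT and by 2.22 ± 0.62 in Total. Ugt1a6a was lower in PT than in Total in every state. Ugt1a10 reached a mean of 11.9 CPM in a group and was not called in any comparison. The 8 members that were neither tested nor at 0 everywhere were Sult1c1, Sult2a1, Sult2a8, Ugt1a5, Ugt2a2, Ugt2b1, Ugt2b35 and Ugt2b36.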
